A study of Mus musculus with 4 samples.

Results

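Imprinted genes were followed in mouse embryonic stem cells before and after alternative lengthening of telomeres (ALT). They were taken from a list of 45 genes known to be expressed from a single parental allele in at least some tissues, matched exactly by symbol, and all 45 were found among the 53379 genes of the files. The cells were of the line DKO741, recovered from E14 embryonic stem cells after both alleles of *Terc*, the RNA component of telomerase, had been replaced with a targeting construct. RNA was sequenced from the same line at population doubling 100 (PD100, pre-ALT) and population doubling 800 (PD800, post-ALT), with 2 libraries in each group, and all 4 libraries carried the *Terc* deletion. The line was kept on feeder cells, but the RNA came from cells grown without them. No other line and no *Terc* wild-type cells were analysed here, so that time in culture, the ALT state and the history of this line cannot be told apart. *Terc* itself had 1 count in PD100 replicate 1 and 0 counts in the other libraries.

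Imprinted genes carry DNA methylation on the copy inherited from a single parent, at control regions that govern whole clusters. Within a cluster, maternally and paternally expressed genes often lie side by side, and a long non-coding RNA from a given allele commonly accompanies silence of protein-coding neighbours on that allele. Stem cells in culture can lose or gain these marks, and many of the genes act on growth of the embryo and placenta. RNA levels summed over both alleles, as measured here, do not tell which allele was transcribed.

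The libraries held between 32454121 and 38492149 expected counts. Levels are given as CPM (counts scaled to a common total) with totals scaled by TMM factors, and differences as log2 fold changes of PD800 against PD100 with their standard error (SE) from edgeR. Calls required more than a 2-fold change together with an adjusted p (Benjamini-Hochberg) below 0.01 from the quasi-likelihood test of edgeR. The replicates are described as biological duplicates, with no word on whether they came from separate cultures, so that p-values measure the spread between these libraries only. With 2 libraries against 2, an exact permutation test could not give a p under 0.333.

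Of the 45 imprinted genes, 42 had enough counts to be tested, and 18 of these were called. Levels of 8 were higher in PD800 and levels of 10 were lower, compared with 5 and 8 in limma's test on log2(TPM + 1) and 5 and 6 when a change beyond 2-fold was tested. Among all genes, that limma test called 297 higher and 920 lower and the test beyond 2-fold 386 and 685, beside 1202 and 1686 in edgeR's test. Among all 19148 tested genes 15.1% were called, 6.28% as higher and 8.81% as lower, compared with 42.9% of the tested imprinted genes. The imprinted genes were listed with earlier results of these data known, and the difference between these shares was not tested. Of their 8 calls as higher, 4 lie in the *Dlk1*-*Dio3* domain, and calls within a domain need not be independent. A further 5 imprinted genes passed the adjusted p with less than a 2-fold change, 2 of them higher and 3 lower. The other 19 did not pass it, where 28.5% of all tested genes passed at any fold. The median log2 fold change of the imprinted genes was -0.13, beside 0.01 over all tested genes, with a range from -5.62 to 2.09. The calls spread over 11 of the 19 loci, 1 of them through *Airn* alone, and 0 loci held members called in opposite directions. Only *H19*/*Igf2*, *Kcnq1*, *Dlk1*-*Dio3*, *Snrpn* and *Peg10* held more than 1 called member, so that no other locus could show this. *Airn* passed the filter on low counts only through the PD100 libraries. With at least 10 counts in every library it was not tested, and 17 calls were kept, 8 higher and 9 lower. With that filter 1063 genes were called higher and 1380 lower among all 16805 tested. Maternally expressed genes numbered 17, of which 14 were tested, 3 called higher and 4 lower, with a median of -0.28. The 27 paternally expressed genes were all tested, with 5 called higher, 6 lower and a median of 0.07. The remaining gene, *Gnas*, is expressed from an allele that depends on the transcript.

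**Figure D1:**
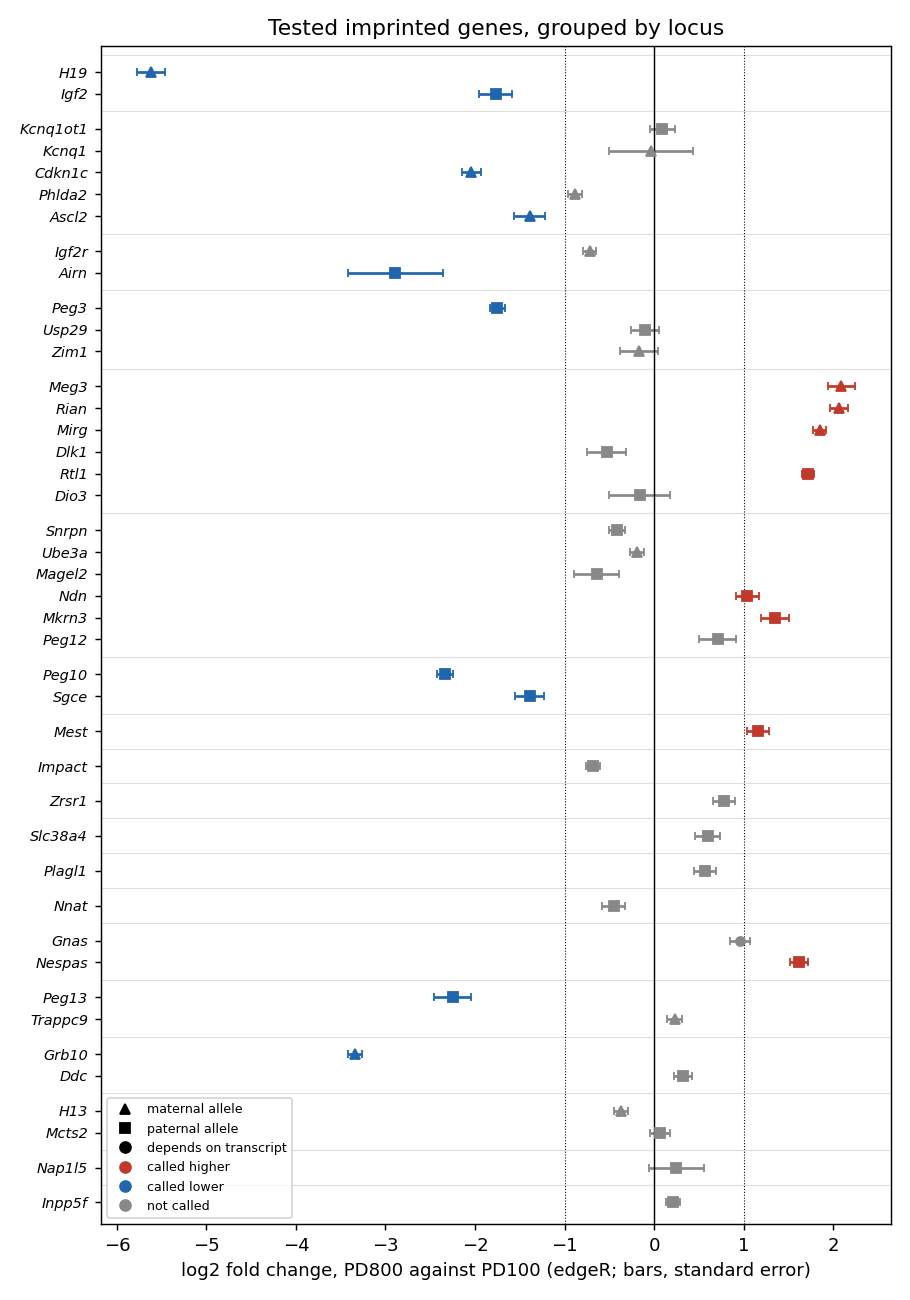
Log2 fold change of PD800 against PD100 for each tested imprinted gene, grouped by locus, with bars for the standard error from edgeR and dotted lines at a 2-fold change. Triangles mark maternally expressed genes, squares paternally expressed genes and the circle *Gnas*; *H19* lies lowest at -5.62 and *Meg3* highest at 2.09.

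*H19* and *Igf2* share enhancers on chromosome 7, *H19* as a maternally expressed non-coding RNA and *Igf2* as a paternally expressed growth factor. *H19* (ENSMUSG00000000031.16, chr7:142575529-142578143) had 229 and 187 CPM in the PD100 libraries and 3.81 and 4.66 CPM in the PD800 libraries. Both PD800 libraries lay far below both PD100 libraries, and the log2 fold change was -5.62 (SE 0.16, adjusted p = 3.11e-05, edgeR). *Igf2* had 39.1 and 32.6 CPM at PD100 and 12.3 and 8.74 CPM at PD800, a log2 fold change of -1.77 (SE 0.18, adjusted p = 0.000717, edgeR). Both genes thus fell with no overlap between the groups, and they are expressed from opposite alleles. Since *H19* fell further, the ratio of their TPM, which is scaled for transcript length, went from 6.86 and 6.4 at PD100 to 0.334 and 0.578 at PD800. Around the locus, the median of the 40 nearest tested genes was 0.26.

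In the neighbouring *Kcnq1* domain the long RNA *Kcnq1ot1* is made from the paternal allele, on which it silences several genes. Its level was 280 and 216 CPM at PD100 and 278 and 249 CPM at PD800, so that the groups overlapped (log2 fold change 0.09, SE 0.14). *Cdkn1c*, a maternally expressed inhibitor of cyclin-dependent kinases, had 35.2 and 37.5 CPM at PD100 against 8.14 and 9.58 CPM at PD800. It fell with a log2 fold change of -2.04 (SE 0.11, adjusted p = 9.22e-05, edgeR). *Ascl2*, a transcription factor of trophoblast and stem cells, had 5.32 and 5.3 CPM at PD100 and 1.83 and 2.21 CPM at PD800 (log2 fold change -1.39, SE 0.17), and it was not called in limma's test on log2(TPM + 1), with -0.94. *Phlda2*, which restrains placental growth, had 27.4 and 29.1 CPM at PD100 and 15.1 and 15.7 CPM at PD800. Its fall of less than 2-fold passed the adjusted p (log2 fold change -0.88, SE 0.08), and it was called in limma's test on TPM values. *Cdkn1c*, *Ascl2* and *Phlda2*, all maternally expressed, were thus lower in both PD800 libraries. *Kcnq1*, a potassium channel, had between 7 and 14 counts in each library and did not pass the test. Reads of *Kcnq1* and *Kcnq1ot1*, which lie on opposite strands of the same stretch, may be mixed, because the strand option used in the counting is not given in the sources used here.

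*Igf2r*, the maternally expressed receptor that takes up and degrades IGF2, had 153 and 159 CPM at PD100 and 95.2 and 93.9 CPM at PD800. Its log2 fold change of -0.72 (SE 0.07, adjusted p = 0.000679, edgeR) was less than 2-fold. The antisense RNA *Airn*, made from the paternal allele across *Igf2r*, had 47 and 20 counts at PD100 and 5 and 3 counts at PD800. All of these counts are low, and the PD100 libraries differed from each other by more than the PD800 libraries did. The log2 fold change of *Airn* was -2.89 (SE 0.53, adjusted p = 0.0064, edgeR). It passed the filter on low counts only through the PD100 libraries, where it was higher. Its call, 1 of the 18, is thus not taken as support for a fall. Its call was lost without PD800 replicate 1 (log2 fold change -3.2) and without PD800 replicate 2 (-2.64). With a library left out, here and for other genes, the lone library of its group is assumed to vary like those of the other group. *Slc22a2* and *Slc22a3*, organic cation transporters of the same locus, had at most 2 counts in any library and were not tested. Reads of *Airn* and *Igf2r* may be mixed for the same reason.

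*Peg3*, a paternally expressed zinc finger protein on chromosome 7, had 144 and 154 CPM at PD100 and 43.7 and 45.1 CPM at PD800. It fell with a log2 fold change of -1.75 (SE 0.08, adjusted p = 6.56e-05, edgeR). *Usp29*, a paternally expressed deubiquitinase gene that starts head to head with *Peg3*, had 3.64 and 3.56 CPM at PD100 and 3.53 and 3.17 CPM at PD800. Levels of *Usp29* thus lay close together in all 4 libraries (log2 fold change -0.10, SE 0.16), and the difference between the changes of both genes was not tested. *Zim1*, a maternally expressed zinc finger gene next to them, had 3.09 and 2.9 CPM at PD100 and 3.06 and 2.27 CPM at PD800 (log2 fold change -0.17, SE 0.21). The ratio of the TPM of *Peg3* to that of *Zim1* was 26.9 and 29.4 at PD100 and 9.41 and 12.8 at PD800.

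The stretch between the starts of *Peg3* and *Usp29* is shown because a gene that fell and a gene that did not pass the test start on either side of it. The sequence is from RefSeq (GRCm38.p6, chr7:6730420-6730582, + strand, which reads towards *Usp29*), is 163 bases long and holds 5 CpG, marked by capitals.
Peg3 to Usp29: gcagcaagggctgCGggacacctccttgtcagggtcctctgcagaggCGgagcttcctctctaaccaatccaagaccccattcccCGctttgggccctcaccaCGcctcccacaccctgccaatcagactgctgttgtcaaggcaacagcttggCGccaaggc

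The *Dlk1*-*Dio3* domain of chromosome 12 holds maternally expressed non-coding RNAs and paternally expressed protein-coding genes. *Meg3* (ENSMUSG00000021268.17, chr12:109541001-109571726), the first RNA of the maternal transcription unit, had 107 and 81.5 CPM at PD100 and 428 and 373 CPM at PD800. *Rian*, a host of small nucleolar RNAs, had 267 and 238 CPM at PD100 and 1084 and 1042 CPM at PD800. *Mirg*, a host of microRNAs, had 35.9 and 36.3 CPM at PD100 and 130 and 131 CPM at PD800. These RNAs rose, with log2 fold changes of 2.09 for *Meg3* (SE 0.15, adjusted p = 0.000233), 2.07 for *Rian* (SE 0.10, adjusted p = 6.95e-05) and 1.85 for *Mirg* (SE 0.07, adjusted p = 4.88e-05) in edgeR's test. In TPM, *Rian* was the most abundant of these RNAs, with 166 and 145 TPM at PD100 and 590 and 543 TPM at PD800. The ratio of the TPM of *Rian* to that of *Meg3* was 3.82 and 4.24 at PD100 and 3.28 and 3.43 at PD800, and that of *Mirg* to *Meg3* was 0.559 and 0.598 at PD100 and 0.37 and 0.396 at PD800. Both TPM ratios were thus lower at PD800, while both ratios of counts overlapped between the groups, that of *Rian* to *Meg3* with 2.49 and 2.92 against 2.53 and 2.79 and that of *Mirg* to *Meg3* with 0.335 and 0.445 against 0.304 and 0.351.

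On the paternal side of that domain, *Dlk1*, a Notch-like ligand, had 1.81 and 2.16 CPM at PD100 and 1.25 and 1.49 CPM at PD800. *Dio3*, a deiodinase that inactivates thyroid hormone, had between 16 and 27 counts in each library. Neither passed the test (log2 fold changes -0.53, SE 0.22, and -0.16, SE 0.34). *Rtl1*, a retrotransposon-derived gene of the placenta, had 30.0 and 29.5 CPM at PD100 and 98.9 and 97.3 CPM at PD800, and it rose with the maternal RNAs (log2 fold change 1.72, SE 0.07, adjusted p = 5.48e-05, edgeR). A maternal antisense transcript covers *Rtl1*, and 6 microRNA hairpins of RefSeq lie within the gene on the opposite strand. Reads of *Rtl1* and of its antisense partner may be mixed in the same way. The TPM of *Meg3* was 42.3 and 34.3 times that of *Dlk1* at PD100 and 339 and 236 times at PD800.

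Genes around this domain were also higher in PD800. For the 40 nearest tested genes the median was 0.99, with 15 called higher and 0 lower. When the 5 unlisted genes inside the domain were left out, a choice made after seeing the data, the median of the 40 nearest was 0.86, with 12 called higher and 0 lower. Of the nearest tested protein-coding genes, named after their values were seen, *Begain* (0.80, SE 0.26), itself known as imprinted in some tissues, and *Wdr25* (1.32, SE 0.10) lie before the domain, and *Ppp2r5c* (1.40, SE 0.09) and *Dync1h1* (0.55, SE 0.10) after it. *Wdr25* and *Ppp2r5c* were called, *Dync1h1* rose by less than 2-fold and *Begain* did not pass the test. *Meg3*, *Rian*, *Mirg* and *Rtl1* lay above these values, whereas *Dlk1* lay below 0. The sign of *Dio3* was not stable, with 0.06 without PD100 replicate 1 and 0.08 without PD800 replicate 1. Copy number was not analysed here, and the part of this regional rise in the levels of *Meg3* and its neighbours was not tested.

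In the *Snrpn* domain, paternally expressed in the main, *Ndn*, a growth suppressor of the MAGE family, had 8.66 and 9.19 CPM at PD100 and 16.5 and 20.3 CPM at PD800. *Mkrn3*, a ring finger gene that restrains the onset of puberty, had 3.04 and 3.95 CPM at PD100 and 8.9 and 8.89 CPM at PD800. Both rose without overlap between the groups, with log2 fold changes of 1.04 for *Ndn* (SE 0.13, adjusted p = 0.00139) and 1.35 for *Mkrn3* (SE 0.16, adjusted p = 0.00121) in edgeR's test. *Ndn* lay close to the 2-fold limit and was no longer called without PD800 replicate 2 (log2 fold change 0.89), nor were *Ndn* and *Mkrn3* in limma's test on log2(TPM + 1), with 0.57 and 0.69. The other members did not pass the test: *Snrpn*, a splicing protein gene (-0.41, SE 0.09), *Ube3a*, a ubiquitin ligase gene expressed from the maternal allele in neurons (-0.19, SE 0.08), *Magel2* (-0.64, SE 0.25) and *Peg12* (0.71, SE 0.21). *Snrpn* shares its transcripts with *Snurf*, so that their reads may have been split in either direction.

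*Peg10* and *Sgce* are paternally expressed from neighbouring starts on chromosome 6 and point away from each other. *Peg10*, a retrotransposon-derived gene required in the placenta, had 653 and 596 CPM at PD100 and 124 and 123 CPM at PD800. *Sgce*, the gene of epsilon-sarcoglycan, had 9.13 and 7.84 CPM at PD100 and 3.59 and 2.89 CPM at PD800. Both fell without overlap, with log2 fold changes of -2.34 (SE 0.09, adjusted p = 4.88e-05) and -1.39 (SE 0.16, adjusted p = 0.00126) in edgeR's test. The median of the 40 nearest tested genes was 0.11.

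*Grb10*, an adaptor that dampens insulin and growth factor signalling, is maternally expressed in most tissues. It had 4156 and 3375 counts at PD100 and 367 and 317 counts at PD800. The groups lay far apart, and the log2 fold change of -3.34 (SE 0.08, adjusted p = 3.03e-05, edgeR) was the largest fall of a called member after that of *H19*. *Ddc*, the gene of aromatic amino acid decarboxylase beside it, had a log2 fold change of 0.32 (SE 0.10) and did not pass the test. *Peg13*, a non-coding RNA from an intron of *Trappc9*, had 148 and 125 counts at PD100 and 31 and 22 counts at PD800. It fell (log2 fold change -2.25, SE 0.21, adjusted p = 0.000581, edgeR), whereas *Trappc9*, which encodes a trafficking protein, had 0.23 (SE 0.08) and did not pass the test. In limma's test on log2(TPM + 1) *Peg13*, whose TPM was under 1 in all 4 libraries, had -0.53 and was not called. Reads from the *Trappc9* intron and from *Peg13* may have been divided between them. *Kcnk9*, a potassium channel of the same locus, had 0 counts in all 4 libraries.

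*Mest*, a paternally expressed gene of the hydrolase fold, had 37.1 and 29.8 CPM at PD100 and 72.8 and 76.9 CPM at PD800. It rose with a log2 fold change of 1.16 (SE 0.12, adjusted p = 0.000731, edgeR), but was no longer called without PD100 replicate 2 (log2 fold change 0.99) or in limma's test on log2(TPM + 1) (0.76). In the *Gnas* domain of chromosome 2, the paternal antisense RNA *Nespas* had 8.78 and 9.32 CPM at PD100 and 29.2 and 26.3 CPM at PD800 (log2 fold change 1.62, SE 0.10, adjusted p = 0.000129, edgeR). *Gnas*, the gene of the stimulatory G protein alpha subunit, had 124 and 142 CPM at PD100 and 241 and 278 CPM at PD800. Both genes rose, *Gnas* by less than 2-fold (log2 fold change 0.96, SE 0.11, adjusted p = 0.00103, edgeR). *Gnas* was called without PD100 replicate 2 (1.04) and without PD800 replicate 1 (1.07), but it did not pass the adjusted p in limma's test on TPM values (0.53 on log2(TPM + 1) and 0.54 on log2(TPM + 0.1)). The 40 nearest tested genes had a median of 1.45, with 23 called higher and 0 lower, but the nearest tested protein-coding genes, named after their values were seen, differed among themselves. *Npepl1* (0.92, SE 0.09) and *Stx16* (1.19, SE 0.08) lie before the domain, and *Nelfcd* (1.75, SE 0.09) and *Ctsz* (0.21, SE 0.10) after it, so that *Nespas* and *Gnas* both lay within the range of these genes. *Nespas* and *Gnas* overlap on opposite strands, and their reads may be mixed too. Copy number was not analysed here either, and the part of the regional rise in either value was not tested.

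Of the single-gene loci, *Impact*, a regulator of translation under stress, had 115 and 105 CPM at PD100 and 69.2 and 68.0 CPM at PD800 (log2 fold change -0.68, SE 0.08, adjusted p = 0.00132, edgeR). *Zrsr1*, a splicing factor gene copied from *Zrsr2* by retrotransposition into an intron of *Commd1*, had 12.9 and 10.6 CPM at PD100 and 19.9 and 20.4 CPM at PD800 (log2 fold change 0.78, SE 0.12, adjusted p = 0.00293, edgeR). Both changes were of less than 2-fold, and neither passed the adjusted p under every alternative (*Zrsr1* had 0.42 in limma's test on log2(TPM + 1)). Reads of *Zrsr1* may be shared with *Zrsr2*. *Plagl1*, a zinc finger regulator of imprinted networks, did not pass the test at 0.57 (SE 0.12), while the 40 nearest tested genes had a median of -0.95, with 0 called higher and 16 lower. The amino acid transporter *Slc38a4* (0.60, SE 0.14) and *Nnat* (-0.45, SE 0.13), a small membrane protein gene of neurons, did not pass the test either. Nor did *H13* (-0.37), *Mcts2* (0.07), *Nap1l5* (0.25) or *Inpp5f* (0.21), of which *Mcts2* and *Nap1l5* lie in introns of *H13* and *Herc3*.

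**Figure D2:**
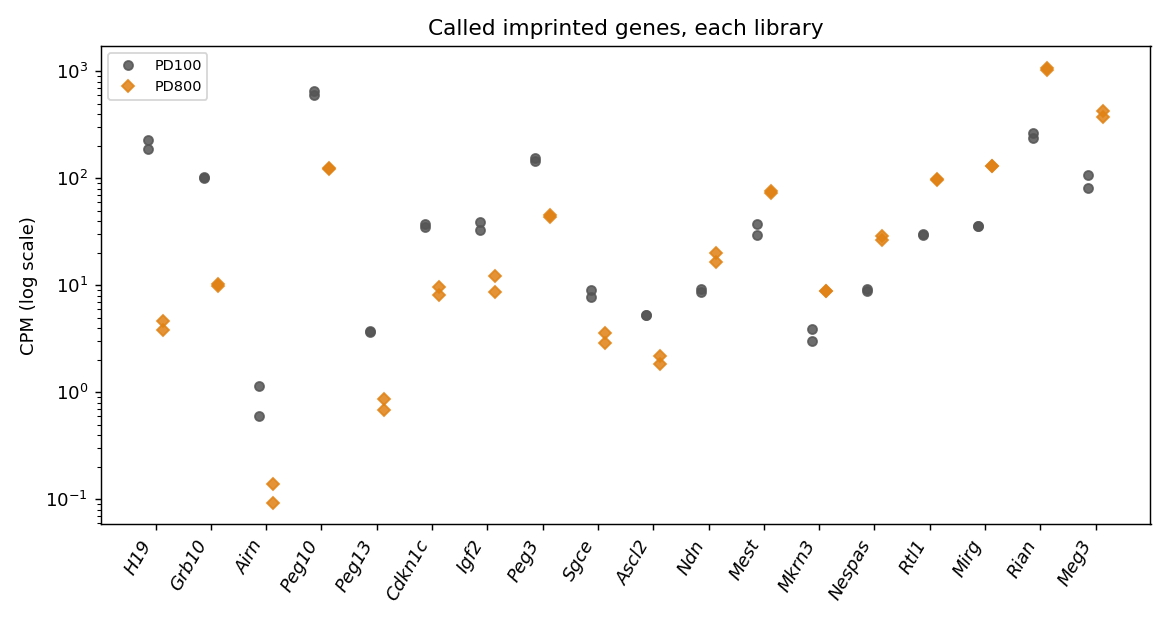
CPM on a log scale in each library for the 18 called imprinted genes, ordered by log2 fold change, with circles for the PD100 libraries and diamonds for the PD800 libraries. For each of these genes both PD800 libraries lie on the same side of both PD100 libraries, which selection by the calls makes nearly certain. The genes run from *H19* (229 and 187 against 3.81 and 4.66 CPM) to *Meg3* (107 and 81.5 against 428 and 373 CPM).

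**Figure D3:**
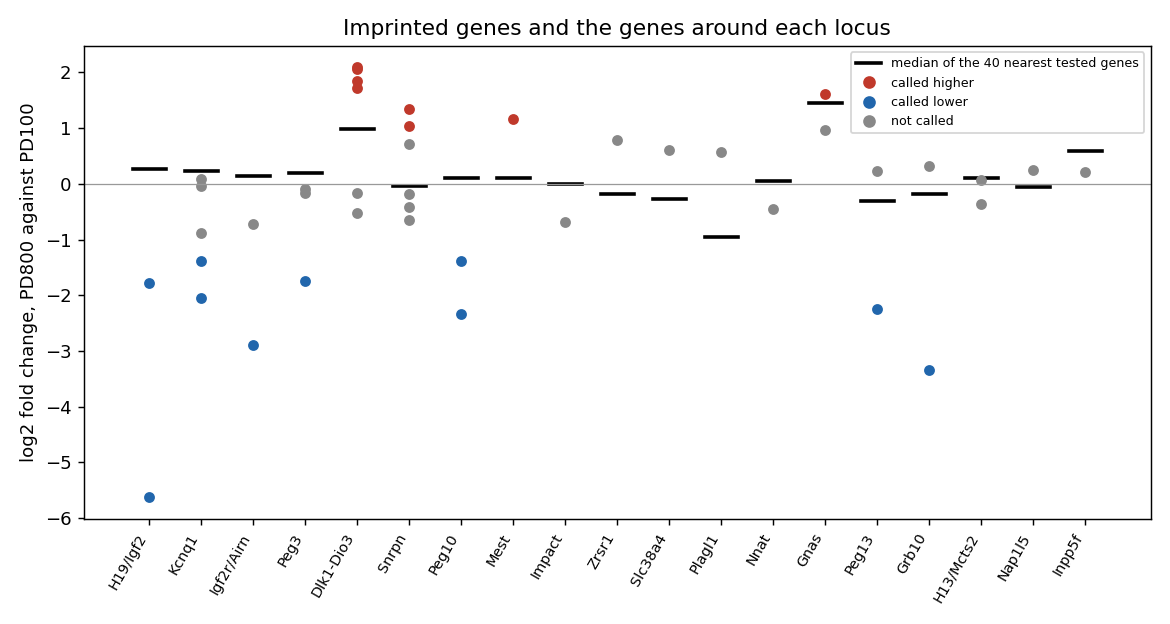
Log2 fold change of PD800 against PD100 of the tested imprinted genes by locus (points), with a black bar for the median of the 40 nearest tested genes of the same chromosome. The bars lie highest at *Gnas* (1.45) and *Dlk1*-*Dio3* (0.99) and lowest at *Plagl1* (-0.95).

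RefSeq promoter windows (GRCm38.p6), each of 250 bases before and 50 after a start, were found by symbol for 34 of the 45 imprinted genes, 50 windows in all. The hexamer TGCCGC, which the zinc finger protein ZFP57 is known to bind when it is methylated, was searched on both strands. It was in 12 of these windows (24.0%), those of 11 genes, compared with 11.6% of all 32851 windows. The 12 include overlapping windows of *Mest*, beginning at 30737800 and 30737803, which hold the same hexamers. Windows of imprinted genes held a median of 12.5 CpG and all windows a median of 7. Of the 11 called genes with a window 4 had the hexamer (*Meg3*, *Mest*, *Grb10* and *Igf2*), as did 7 of the 23 that were not called or not tested. The bases before the starts of *Meg3* (chr12:109540746-109540995, + strand) and *Mest* (chr6:30737800-30738049, + strand) are shown, since both genes rose and their windows hold the hexamer, which is in capitals and here reads as its reverse complement GCGGCA.
Meg3: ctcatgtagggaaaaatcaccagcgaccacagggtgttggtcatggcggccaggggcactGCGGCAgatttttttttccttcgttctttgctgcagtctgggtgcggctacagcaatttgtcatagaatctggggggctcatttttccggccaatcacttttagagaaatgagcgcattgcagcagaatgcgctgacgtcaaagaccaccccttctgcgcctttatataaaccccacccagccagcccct
Mest: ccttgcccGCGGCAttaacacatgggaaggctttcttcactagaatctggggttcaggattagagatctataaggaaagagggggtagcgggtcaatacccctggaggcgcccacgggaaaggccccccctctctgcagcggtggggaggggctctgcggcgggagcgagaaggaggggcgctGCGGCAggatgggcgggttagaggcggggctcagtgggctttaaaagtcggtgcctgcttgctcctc

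Of 18 genes that maintain or alter imprints, all tested, 12 did not pass the adjusted p. Calls were 2 higher and 2 lower (22.2%, beside 15.1% of all tested genes), 2 more rose by less than 2-fold, and the median log2 fold change was 0.08. *Zfp57*, which protects methylated imprints, had 183 and 152 CPM at PD100 and 414 and 412 CPM at PD800, and *Tet2*, an enzyme that oxidises methylated cytosine, had 94.8 and 67.9 CPM at PD100 and 377 and 336 CPM at PD800. Both rose, with log2 fold changes of 1.3 (SE 0.11, adjusted p = 0.00036) and 2.13 (SE 0.17, adjusted p = 0.000309) in edgeR's test. *Dppa3*, a factor that shields methylation in the early embryo, had 12.4 and 16.2 CPM at PD100 and 3.06 and 3.27 CPM at PD800. *Dnmt3b*, a de novo DNA methyltransferase, had 254 and 274 CPM at PD100 and 77.3 and 78.9 CPM at PD800. These genes fell, with log2 fold changes of -2.17 (SE 0.16, adjusted p = 0.00026) and -1.76 (SE 0.08, adjusted p = 6.55e-05) in edgeR's test. *Setdb1*, a histone methyltransferase (0.79, SE 0.07), and *Zfp445*, another zinc finger protein of imprints (0.40, SE 0.07), rose by less than 2-fold. *Trim28*, the partner that ZFP57 recruits (0.33, SE 0.11), *Dnmt1*, the maintenance methyltransferase (0.21, SE 0.09), and *Uhrf1*, which guides it to new DNA (-0.14, SE 0.07), did not pass the test. DNA methylation itself was not analysed here.

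Of 27 other genes with imprinted expression in some tissue, 23 were tested, 1 was called higher and 4 lower (21.7%, beside 15.1% of all tested genes), and 2 more passed the adjusted p with less than a 2-fold change, *Copg2* (0.50) and *Gab1* (-0.59). Their median log2 fold change was 0.25. *Atp10a*, a lipid flippase gene, fell from 21.2 and 19.6 CPM at PD100 to 3.42 and 3.17 CPM at PD800 (log2 fold change -2.63, SE 0.11, adjusted p = 5.22e-05, edgeR). *Xlr3b* (-1.59, SE 0.26), *Sfmbt2*, a polycomb protein gene of the placenta (-1.33, SE 0.09), and *Smoc1*, a matrix protein gene (-1.05, SE 0.12), also fell. *Ampd3*, an AMP deaminase gene, rose (1.40, SE 0.18).

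Marker genes of other cell types moved between the groups too. All 8 primitive endoderm markers were called lower, and their summed level was 1762 and 2013 CPM at PD100 and 153 and 161 CPM at PD800. *Col4a1* was the most abundant of them at PD100 in CPM (1046 and 1248) and in TPM. In each PD800 library *Foxa2* had 1 count and *Sox17* had 9 counts. Both passed the filter on low counts only through the PD100 libraries, where they were higher, so that their calls are not taken as support for a fall. Of 8 fibroblast markers 7 were tested and 4 fell, with summed levels of 47.0 and 69.4 CPM at PD100 and 13 and 13.9 CPM at PD800, while *Lum* had at most 1 count in any library. Of 8 trophoblast markers 6 were tested, 4 fell and *Eomes* rose, with summed levels of 36.2 and 36.9 CPM at PD100 and 16.0 and 13.7 CPM at PD800. In CPM as in TPM, *Krt7* was the most abundant of these at PD100 (18.2 and 20.1 CPM), and *Eomes* at PD800 (9.31 and 7.53 CPM). Of 8 embryonic stem cell markers 3 were called higher (*Nanog*, *Esrrb* and *Klf4*), 0 were called lower and *Tdgf1* rose by less than 2-fold, with summed levels of 1992 and 2293 CPM at PD100 and 3772 and 3869 CPM at PD800. In TPM, *Dppa5a* was the most abundant of these in every library. Of all tested genes 8.81% were called lower. Beside the 10 imprinted genes called lower, among them *H19*, *Igf2*, *Peg10*, *Grb10* and *Cdkn1c*, all 8 endoderm markers were called lower. These counts include *Airn*, *Foxa2* and *Sox17*, whose calls are not taken as support for a fall. Also called lower were 4 of 7 tested fibroblast and 4 of 6 tested trophoblast markers, whereas *Eomes* was called higher. The part of these cell types in the fall of the imprinted genes was not tested. In bulk RNA, fewer cells of a type and less RNA per cell cannot be told apart.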

How the data were processed

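Bulk RNA of DKO741 cells was measured at PD100 and PD800. The authors aligned reads to mm10 with STAR 2.5.3a and deposited, for each gene, RSEM 1.3.0 expected counts, which are not scaled for depth. The authors also deposited TPM values, scaled by RSEM for length and to the same total. Their annotation release and the strand option of RSEM are not given in the sources used here. Of the 53379 gene identifiers, 53274 were found in GENCODE M21 (GRCm38, also called mm10), which gave coordinates.

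Expected counts were rounded and tested with edgeR 4.0.16 under R 4.3.3 (TMM factors, the quasi-likelihood test and Benjamini-Hochberg adjustment over the 19148 genes that filterByExpr kept at a count minimum of 10). The floor of 3 counts was between 0.0743 and 0.0933 CPM and covers counting error only. Alternatives were DESeq2 1.42.0, its size factors, upper-quartile factors, no filter, at least 10 counts in every library, a replicate block, limma 3.58.1 with a mean-variance trend on log2(TPM + 1) and log2(TPM + 0.1), a test of a fold change over 2, an adjusted p under 0.05, and each library left out. Limma without the trend was added after seeing the data. The procedure was tested on simulated data, with the same relative spread for all genes. Changes were put only in genes above a count limit and were larger than 2-fold. That test thus does not speak for genes of low counts or for changes near 2-fold.

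Values in each library were given for imprinted genes with an adjusted p under 0.01, for both genes of the pairs *H19* and *Igf2*, *Igf2r* and *Airn*, *Meg3* and *Dlk1*, *Peg3* and *Zim1*, and *Kcnq1ot1* and *Cdkn1c*, and for called regulators. They were also given for some other genes, such as *Usp29*, *Atp10a*, *Zim2*, *Zfp264* and some markers. The members and lists were chosen with earlier results of these data known. Promoter sequences came from RefSeq (GRCm38.p6).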

Additional observations from a re-analysis of the deposited data

How the results depend on the processing

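With DESeq2, its size factors, upper-quartile factors, no filter, an adjusted p under 0.05 and the replicate block, all 18 calls were kept and 0 were added. The block called 1461 genes higher and 1956 lower among all genes, and 8 and 10 imprinted genes. Of the 19 imprinted genes that did not pass the adjusted p, 5 passed it with the block, all by less than 2-fold (*Snrpn*, *Slc38a4*, *Plagl1*, *Nnat* and *H13*). Among the genes that maintain or alter imprints, *Trim28* and *Tet3* also passed it only with the block when compared with the unblocked test of edgeR, by less than 2-fold. No label says that a replicate number marks a shared culture, and the deviations of same-numbered libraries correlated at 0.35. With at least 10 counts in every library, *Airn* was not tested and 17 calls were kept.

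Limma on TPM differs from edgeR's fit in test, unit and scaling at once, and the median of all genes moved to -0.12 on log2(TPM + 1) and -0.21 on log2(TPM + 0.1). With a trend, log2(TPM + 1) gave 1217 calls in all, with 5 imprinted genes higher and 8 lower, and higher genes made up 24.4% of all calls beside 41.6% in edgeR's test. On log2(TPM + 0.1) the share was 23.1%, with 5 imprinted genes higher and 11 lower. Limma without the trend was run after seeing the data, because earlier counts of these data matched it. It gave 1146 calls in all and 5 imprinted genes higher on log2(TPM + 1), and 6 higher and 10 lower on log2(TPM + 0.1). With or without the trend, *Airn*, *Ascl2*, *Mest*, *Mkrn3*, *Ndn* and *Peg13* lost their calls on log2(TPM + 1) and *Phlda2* gained one. When the test was of a change beyond 2-fold, 1071 genes were called, 5 imprinted genes higher and 6 lower, and *Airn*, *Ascl2*, *Igf2*, *Mest*, *Mkrn3*, *Ndn* and *Sgce* were lost.

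Of the called imprinted genes, 0 changed sign under any of these alternatives or without any library, and 7 uncalled ones did. Of the genes that passed the adjusted p by less than 2-fold, only *Phlda2* passed it under all alternatives but the test beyond 2-fold. The adjusted p over the others ran from 1.67e-12 to 0.0121 for *Igf2r* and from 4.92e-11 to 0.0182 for *Impact*, from 1.2e-09 to 0.0891 for *Zrsr1* and from 2.1e-21 to 0.105 for *Gnas* (edgeR, DESeq2 and limma). *Igf2r*, *Impact* and *Zrsr1* did not pass it when either PD800 library was left out, *Zrsr1* and *Gnas* in limma's test with or without the trend, and *Impact* in limma's test without it. Low counts limit the precision for *Airn*, *Kcnq1*, *Dio3* and *Nap1l5*.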

Other observations

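Near *Peg3*, *Zim2* and *Zfp264* were looked at after their values were seen, and both have few counts at PD100. *Zim2*, another imprinted gene of that domain, had 16 and 8 counts at PD100 and 111 and 92 counts at PD800. *Zfp264* had 2 and 6 counts at PD100 and 38 and 38 counts at PD800. Both were called higher in edgeR's test, with log2 fold changes of 3.19 for *Zim2* (SE 0.28) and 3.31 for *Zfp264* (SE 0.49). They passed the filter on low counts only through the PD800 libraries, where they were higher. Their calls are thus not taken as support for a rise, and the values are given as a description. Inside the *Dlk1*-*Dio3* domain, the unlisted RNAs *Gm26945* (1.94, SE 0.09), *Gm37899* (2.14, SE 0.20) and *B830012L14Rik* (2.15, SE 0.23), on the strand of *Meg3*, rose as well, while *Gm26906* (1.29, SE 1.02) and *Gm3379* (-0.22, SE 0.24), on the other strand, did not pass the adjusted p in edgeR's test. *Igf2os*, antisense to *Igf2*, had a log2 fold change of -1.37 (SE 0.36) and did not pass the adjusted p in edgeR's test, which it did with the replicate block.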
